A study of Homo sapiens with 12 samples.

Results

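The miR-23a/27a/24-2 and miR-23b/27b/24-1 clusters were followed through small RNA libraries of human AML cells. Members were the mature arms of these clusters that were named by family, which gave 7 of the 1204 mature miRNAs in the count table: miR-23a-3p, miR-27a-3p, miR-27a-5p, miR-24-2-5p and miR-24-3p, with miR-23b-3p and miR-27b-3p from the other cluster. All 7 were among the 659 miRNAs that passed the filter on low counts. MV4-11 and Molm-14, the lines used, are FLT3-ITD+, with an internal tandem duplication in the receptor gene FLT3. In each line, cells in which CRISPR/Cas9 with a single guide RNA had deleted MPC1 (MPC1 KO), a subunit of the mitochondrial pyruvate carrier, were set against cells with a nontargeting Empty Vector (EV). Each of the 4 groups had 3 libraries. The lentiviral construct also expressed GFP. Small RNA libraries do not measure the MPC1 mRNA, and the loss of MPC1 was therefore not checked here. Whether replicate libraries are separate cultures is not stated in the sources used here, so p-values measure the spread between these libraries, which may be technical.

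A miRNA cluster is transcribed as a single precursor RNA, from which each hairpin is cut and then processed to a 5p and a 3p arm. An arm that is loaded into Argonaute pairs with messenger RNAs mainly through its seed, and their protein output falls. miR-23a and miR-23b are known to be lowered by MYC in cancer cells. The mitochondrial pyruvate carrier brings pyruvate to the citric acid cycle, and the arms were compared between cells with and without MPC1. miR-27a and miR-24 are further known for roles in blood cell differentiation and the cell cycle.

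The mature sequences, taken from RefSeq for GRCh38.p14, show which arms can be told apart and which share a seed. They run from 5′ to 3′, and capitals mark the seed, bases 2 to 8. All 7 names matched.
hsa-miR-23a-3p: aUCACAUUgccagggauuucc
hsa-miR-23b-3p: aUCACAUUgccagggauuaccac
hsa-miR-27a-3p: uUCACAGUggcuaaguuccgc
hsa-miR-27b-3p: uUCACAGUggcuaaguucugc
hsa-miR-24-3p: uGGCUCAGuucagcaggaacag
hsa-miR-24-2-5p: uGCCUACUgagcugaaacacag
hsa-miR-24-1-5p: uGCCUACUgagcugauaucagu
hsa-miR-27a-5p: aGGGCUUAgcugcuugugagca
The 3p arms of miR-23a and miR-23b hold the seed UCACAUU and were identical over their first 18 bases. Counted from 1 at the 5′ end, they differed by U19A within the 21 bases they share, and miR-23b-3p ends later. miR-27a-3p and miR-27b-3p, with the seed UCACAGU, were also identical over 18 bases and differed by C19U alone. The seeds of the miR-23 and miR-27 families start with the same 5 letters. miR-24-2-5p and miR-24-1-5p, the 5p arms of the miR-24 hairpins, were identical over 15 bases and differed at 6 of the last positions. miR-24-1-5p is no member and is printed because it is the arm that separates the hairpins of miR-24.

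The a-cluster lies on the minus strand of chromosome 19 and spans 373 bases (chr19:13836287-13836659, GRCh38). Its 3 hairpins overlap an exon of the long noncoding RNA MIR23AHG on the same strand. miR-23a-3p lies at chr19:13836595-13836615, miR-27a-5p at chr19:13836487-13836508, miR-27a-3p at chr19:13836447-13836467 and miR-24-2-5p at chr19:13836326-13836347. The b-cluster lies on the plus strand of chromosome 9 and spans 881 bases (chr9:95085208-95086088). It sits inside the protein-coding gene AOPEP on the same strand. The hairpins of miR-23b and miR-27b are intronic there, and that of miR-24-1 overlaps an exon of some AOPEP transcript. miR-23b-3p lies at chr9:95085265-95085287 and miR-27b-3p at chr9:95085505-95085525. The mature sequence of miR-24-3p is the same at chr19:13836289-13836310 and chr9:95086064-95086085, so its counts cannot be assigned to a cluster by sequence.

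Total counts ran from 3870104 to 8683456 per library with a median of 5107201, and TMM factors lay between 0.940 and 1.08. At these depths miR-24-3p had between 6 and 32 counts per library and the other 6 members had at least 1009. The miRNAs that mark blood cells, miR-142-3p, miR-142-5p and miR-223-3p, summed to between 26979 and 66486 CPM, while miR-205-5p of epithelium and miR-124-3p of neurons had at most 2 and 6 counts. miR-126-3p, known from endothelium and from leukaemic blasts, stood at 5876 CPM in MV4-11 EV and 4897 CPM in Molm-14 EV. The erythroid pair miR-451a and miR-144-3p summed to at most 11.7 CPM, the lymphoid miR-150-5p was at most 4.0 CPM and miR-200c-3p of epithelium averaged 113 to 239 CPM. Both markers of fibroblasts and smooth muscle were lower in Molm-14, and 1 of them, miR-143-3p, also fell after MPC1 deletion there (edgeR adjusted p = 3.7e-06), while miR-145-5p did not pass (edgeR adjusted p = 0.21). miR-143-3p and miR-145-5p summed to 614 to 715 CPM in MV4-11 EV, 507 to 589 CPM in MV4-11 MPC1 KO, 177 to 201 CPM in Molm-14 EV and 99.1 to 104 CPM in Molm-14 MPC1 KO, and their part in the results was not tested.

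Levels are given in CPM, counts per 1000000 counts after TMM scaling, as mean ± SD of 3 libraries. The arms are 21 to 23 bases long, so levels were compared between them without a term for length. Whether the libraries capture each sequence equally was not tested, so orders and ratios between arms are those of counts. miR-27a-3p was the most abundant member in each of the 4 groups, ranking 9 among the 659 miRNAs in MV4-11 EV and 20 in Molm-14 EV. In MV4-11 EV the order was miR-27a-3p (22223 ± 3017), miR-27b-3p (5063 ± 268), miR-23a-3p (4373 ± 200), miR-27a-5p (1301 ± 96.0), miR-24-2-5p (840 ± 111), miR-23b-3p (262 ± 18.0) and miR-24-3p (3.47 ± 0.377). The libraries of neighbours in this order did not overlap. In Molm-14 EV, miR-23b-3p (479 ± 3.40) stood above miR-24-2-5p (311 ± 32.5), again without overlap, so these arms had changed places. The 7 arms together took 3.44 ± 0.530% of the counts in MV4-11 EV and 3.86 ± 0.447% in MV4-11 MPC1 KO. In Molm-14 they took 1.78 ± 0.186% with EV and 1.92 ± 0.0471% after MPC1 deletion.

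**Figure D1:**
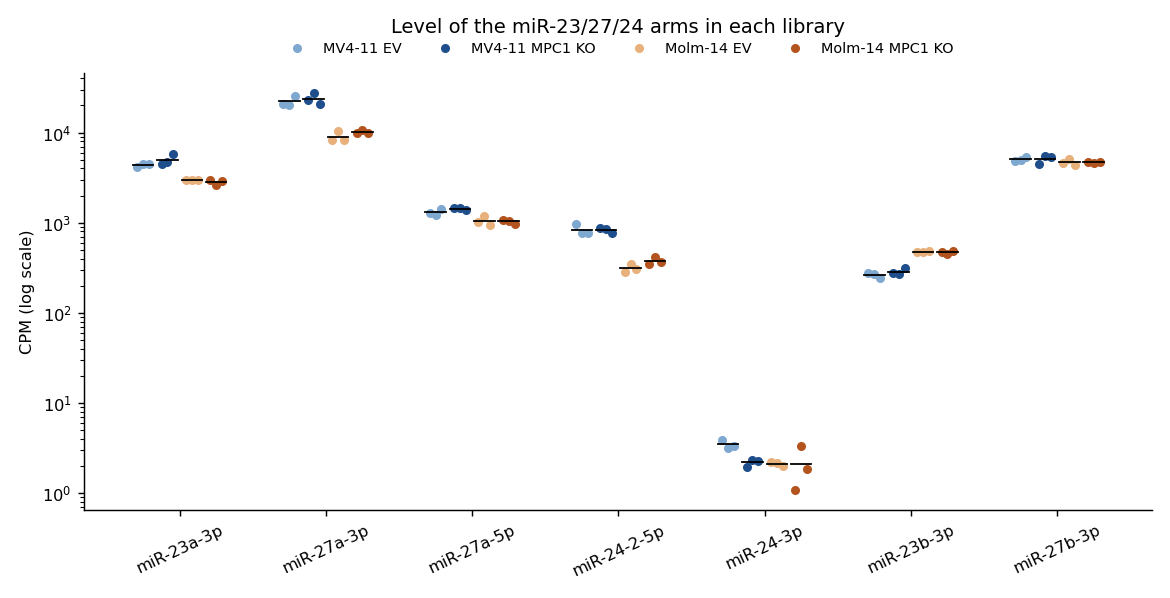
Level of each arm in each of the 12 libraries, in CPM on a log scale. Points are libraries, colours are the 4 groups and black lines are group means. The a-cluster arms other than miR-24-3p lie lower in Molm-14, miR-23b-3p lies higher, miR-27b-3p is level, and miR-24-3p lies between 1.08 and 3.9 CPM.

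miR-23a-3p was measured at 4151, 4537 and 4430 CPM in MV4-11 EV and at 3014, 2952 and 2975 CPM in Molm-14 EV. Every Molm-14 library was below every MV4-11 library. The difference was -0.55 on the log2 scale (SE 0.10, edgeR adjusted p = 4.0e-05). In the MPC1 KO libraries, with 4486, 4659 and 5800 CPM in MV4-11 against 2981, 2637 and 2922 CPM in Molm-14, it was -0.81 (SE 0.10, edgeR adjusted p = 1.8e-07). miR-23b-3p, which carries the same seed, lay the other way. Its EV libraries held 277, 267 and 242 CPM in MV4-11 and 476, 478 and 482 CPM in Molm-14. The Molm-14 libraries were all higher, by 0.87 on the log2 scale (SE 0.094, edgeR adjusted p = 1.6e-08), and in the MPC1 KO libraries by 0.73 (SE 0.094, edgeR adjusted p = 2.7e-07).

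miR-27a-3p, a regulator of blood cell and adipocyte differentiation genes, was measured at 20731, 20243 and 25695 CPM in MV4-11 EV and at 8287, 10546 and 8268 CPM in Molm-14 EV. The groups were far apart, with a log2 difference of -1.30 (SE 0.12, edgeR adjusted p = 1.5e-09), and in MPC1 KO it was -1.23 (SE 0.12, edgeR adjusted p = 4.2e-09). miR-27a-5p, the other arm of the hairpin, stood at 1278, 1219 and 1407 CPM against 1009, 1173 and 953 CPM in the EV libraries. It was also lower in Molm-14, but by less, at -0.32 (SE 0.095, edgeR adjusted p = 0.0058) in EV and -0.46 (SE 0.095, edgeR adjusted p = 0.00020) in MPC1 KO. Without the third Molm-14 EV library the EV difference was -0.21 and no longer passed, with an edgeR adjusted p of 0.13, over a range of -0.39 to -0.21 when each library was left out. miR-27b-3p held 4860, 4963 and 5368 CPM in MV4-11 EV and 4606, 5128 and 4370 CPM in Molm-14 EV. These libraries overlapped, and so did the MPC1 KO libraries. The difference was -0.11 in EV (95% interval -0.31 to 0.094, edgeR adjusted p = 0.35) and -0.12 in MPC1 KO (95% interval -0.32 to 0.077, edgeR adjusted p = 0.27).

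miR-24-2-5p, the 5p arm at the end of the a-cluster, was measured at 969, 773 and 779 CPM in MV4-11 EV and at 281, 346 and 306 CPM in Molm-14 EV. It showed the greatest fitted difference of the 7 arms in EV, -1.44 on the log2 scale (SE 0.11, edgeR adjusted p = 3.8e-11), and -1.13 in MPC1 KO (SE 0.11, edgeR adjusted p = 2.3e-09). miR-24-3p, known to act on cell cycle genes, had 32, 14 and 14 counts in MV4-11 EV and 11, 8 and 9 counts in Molm-14 EV, or 3.9, 3.17 and 3.35 CPM against 2.20, 2.14 and 2.02 CPM. The EV libraries did not overlap, but the difference of -0.73 did not pass the threshold (SE 0.37, edgeR adjusted p = 0.088), and in MPC1 KO it was -0.07 (SE 0.38, edgeR adjusted p = 0.88). In the second Molm-14 EV library its 8 counts had an exact 95% interval of 0.892 to 4.07 per 1000000 reads counted, which covers counting error only.

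Counted together, 5 of the 7 members passed the threshold between the lines in EV, 4 lower and 1 higher in Molm-14, where 61.9% of the 659 miRNAs passed. The same 5 arms passed in MPC1 KO, in the same directions, where the background was 62.4%. With upper-quartile scaling all 7 passed in EV, 6 of them lower, where 408 of the 659 miRNAs passed, 188 higher and 220 lower. The libraries of the lines did not overlap for 6 members in EV and 5 in MPC1 KO, against 64.2% and 67.5% of all miRNAs tested. These shares are near the background, so a difference between the lines is no particular trait of these arms. The median log2 difference of the members was -0.55 in EV and -0.46 in MPC1 KO, beside 0.060 and 0.052 over all miRNAs tested. The EV and MPC1 KO comparisons share no library.

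**Figure D2:**
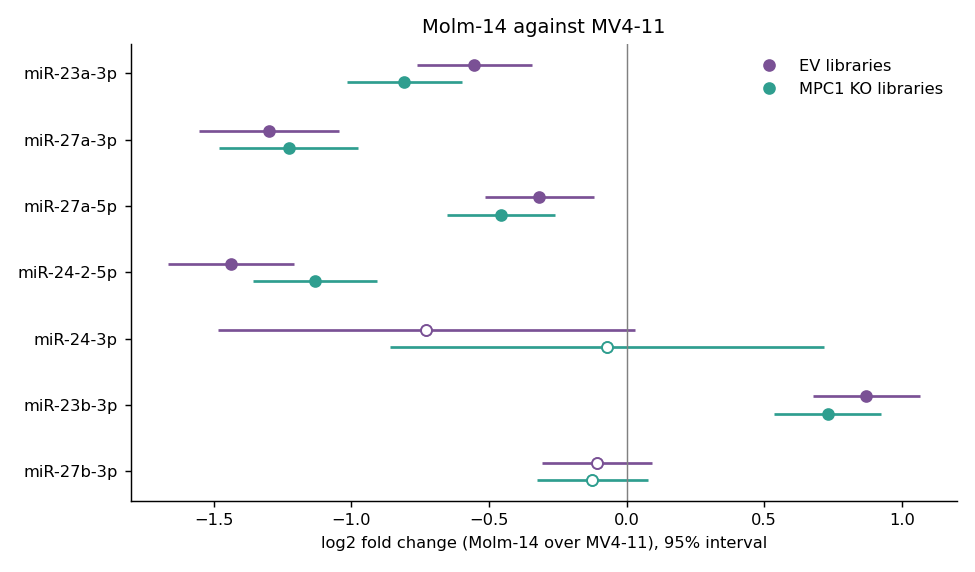
Difference between the lines for each arm, as the log2 fold change of Molm-14 over MV4-11, in the EV and the MPC1 KO libraries. Points are edgeR estimates, lines are 95% intervals, and filled points passed an adjusted p of 0.05. The 4 arms that lie on chromosome 19 alone are left of 0 in both sets, miR-23b-3p is right of 0, and the intervals of miR-24-3p and miR-27b-3p cross 0.

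MPC1 deletion moved none of the 7 arms past the threshold in edgeR. In MV4-11 0 of 7 passed (background 3.03%), and 0 of 7 had an unadjusted p under 0.05. In Molm-14 0 of 7 passed (background 6.83%), and 1 had an unadjusted p under 0.05. The effect averaged over both lines called 0 of 7 (background 5.31%) and the difference between the effects 0 of 7 (background 6.68%), both with 0 at an unadjusted p under 0.05. DESeq2 and limma-voom also called 0 in each of these comparisons. Of all 659 miRNAs, DESeq2 called 30 in MV4-11 and 54 in Molm-14, and limma-voom 20 and 46. For the averaged effect and the difference, DESeq2 called 38 and 49 and limma-voom 35 and 36. With backgrounds this low, 0 of 7 does not set these arms apart from other miRNAs.

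For the miR-23 arms, the change after MPC1 deletion was bounded as follows. miR-23a-3p moved from 4373 ± 200 to 4982 ± 714 CPM in MV4-11, a log2 difference of 0.19 (95% interval -0.019 to 0.40, edgeR adjusted p = 0.43). In Molm-14 it was 2981 ± 31.4 CPM in EV and 2847 ± 184 CPM in MPC1 KO, a difference of -0.07 (95% interval -0.27 to 0.14, edgeR adjusted p = 0.81). The third MV4-11 MPC1 KO library, at 5800 CPM, was the highest, and the libraries of each line overlapped between genotypes. miR-23b-3p was 262 ± 18.0 and 285 ± 24.3 CPM in MV4-11, a log2 difference of 0.12 (95% interval -0.071 to 0.32, edgeR adjusted p = 0.64). In Molm-14 it was 479 ± 3.40 and 473 ± 17.6 CPM, a difference of -0.02 (95% interval -0.21 to 0.17, edgeR adjusted p = 0.96). These intervals are not adjusted for the number of arms, and they leave room for a change of miR-23a-3p in MV4-11 of up to 0.40.

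The arms of miR-27 were close to their controls as well. miR-27a-3p was 22223 ± 3017 CPM in MV4-11 EV and 23834 ± 3518 CPM in MPC1 KO, a log2 difference of 0.10 (SE 0.12), and 9034 ± 1310 against 10177 ± 452 CPM in Molm-14, a difference of 0.17 (SE 0.12). miR-27a-5p gave 0.13 (SE 0.095) and -0.01 (SE 0.095) in MV4-11 and Molm-14, and miR-27b-3p 0.01 (SE 0.097) and -0.01 (SE 0.097). Each of these groups overlapped between genotypes.

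The arms of miR-24 were the members whose genotypes separated, each in a single line. In MV4-11 the MPC1 KO libraries of miR-24-3p, at 1.94, 2.34 and 2.30 CPM, were all below the EV libraries, at 3.9, 3.17 and 3.35 CPM. This rests on 10, 14 and 13 counts against 32, 14 and 14, and the log2 difference of -0.67 did not pass (SE 0.35, edgeR adjusted p = 0.40). In Molm-14 the MPC1 KO libraries of miR-24-2-5p, at 349, 420 and 363 CPM, were all above the EV libraries, at 281, 346 and 306 CPM. The log2 difference of 0.28 had an interval above 0 (0.054 to 0.51) but an edgeR adjusted p of 0.13. Without the second Molm-14 EV library it was 0.39 with an edgeR adjusted p of 0.043, and it lay between 0.21 and 0.39 as each library was left out. The libraries of 17.5% of the 659 miRNAs did not overlap in MV4-11 and those of 27.2% in Molm-14, beside 1 of 7 members in each.

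**Figure D3:**
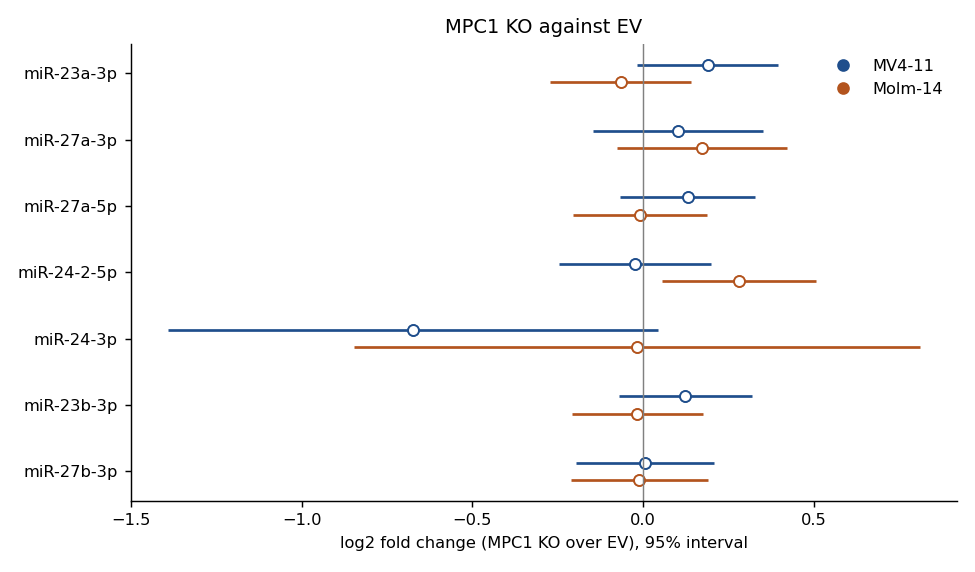
Change of each arm after MPC1 deletion, as the log2 fold change of MPC1 KO over EV, in MV4-11 and Molm-14. Points are edgeR estimates, lines are 95% intervals, and open points did not pass an adjusted p of 0.05. All 14 points are open, and the interval of miR-24-2-5p in Molm-14, 0.054 to 0.51, is the only interval that leaves out 0.

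Ratios of counts within a library need no scaling of the libraries and set arms of the a-cluster beside those of the b-cluster. Counts of near-identical arms may be split or lost, so these are ratios of counts and not of cluster output. In each library the count of miR-23a-3p was divided by that of miR-23b-3p, and so on for 7 pairs. Labels were permuted among libraries within each genotype or line, which gives 400 arrangements and a smallest p of 0.005, and the 14 p-values received a Benjamini-Hochberg adjustment. miR-23a-3p outnumbered miR-23b-3p by 16.8 ± 1.68 in MV4-11 EV and 17.4 ± 1.12 in MV4-11 MPC1 KO, but in Molm-14 by 6.23 ± 0.0952 with EV and 6.02 ± 0.243 after MPC1 deletion. The ratio was lower in every Molm-14 library than in every MV4-11 library, by -1.48 on the log2 scale (exact permutation p = 0.005, adjusted p = 0.012). miR-23b-3p therefore supplied 5.66 ± 0.546% of the miR-23a-3p and miR-23b-3p counts in MV4-11 EV and 13.8 ± 0.181% in Molm-14 EV.

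miR-27a-3p outnumbered miR-27b-3p by 4.38 ± 0.367 in MV4-11 EV and by 1.92 ± 0.130 in Molm-14 EV. Over EV and MPC1 KO the log2 difference between the lines was -1.15 (exact permutation p = 0.005, adjusted p = 0.012). miR-27b-3p made up 18.7 ± 1.24% of the counts of this pair in MV4-11 EV and 34.3 ± 1.52% in Molm-14 EV. For miR-24 the 5p arms separate the loci, and miR-24-2-5p outnumbered miR-24-1-5p by 114 ± 37.3 in MV4-11 EV and 49.4 ± 6.68 in Molm-14 EV, a log2 difference over all libraries of -1.23 (exact permutation p = 0.005, adjusted p = 0.012). miR-24-1-5p had only 26 to 66 counts per library. By these arms the counts thus lay toward the a-cluster at each of the 3 hairpins in both lines, and less so in Molm-14 at each of them. Neither miR-27b-3p nor miR-24-1-5p was called between the lines in EV (edgeR adjusted p = 0.35 and 0.43). Their ratios therefore largely repeat the differences of miR-27a-3p and miR-24-2-5p given above. The 5p arms of miR-23 and miR-27 also gave lower ratios in Molm-14, as values without a test. The mean log2 differences were -0.92 for miR-23a-5p to miR-23b-5p and -0.77 for miR-27a-5p to miR-27b-5p. The size of a ratio depended on the arm. In MV4-11 EV miR-23a-5p outnumbered miR-23b-5p by 2.52 ± 0.831, and miR-27a-5p outnumbered miR-27b-5p by 36.0 ± 1.70. In Molm-14 the ratio of miR-23a-5p to miR-23b-5p was near 1, from 0.905 to 1.34 in EV and 1.21 to 1.36 in MPC1 KO.

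Arms within a cluster did not differ between the lines by the same amount. The ratio of miR-23a-3p to miR-27a-3p was 0.199 ± 0.0259 in MV4-11 EV and 0.335 ± 0.0473 in Molm-14 EV, a log2 difference over all libraries of 0.58 (exact permutation p = 0.010, adjusted p = 0.020). In the b-cluster the ratio of miR-23b-3p to miR-27b-3p was 0.0519 ± 0.00616 and 0.102 ± 0.00863, a difference of 0.92 (exact permutation p = 0.005, adjusted p = 0.012). The arms of the miR-27a hairpin also shifted against each other. miR-27a-3p outnumbered miR-27a-5p by 17.0 ± 1.09 in MV4-11 EV and 8.63 ± 0.394 in Molm-14 EV, a difference of -0.87 (exact permutation p = 0.005, adjusted p = 0.012). As values without a test, the ratio of the 3p to the 5p arm differed between the lines by -0.03 for miR-23a, 0.53 for miR-23b and -0.50 for miR-27b on the log2 scale.

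**Figure D4:**
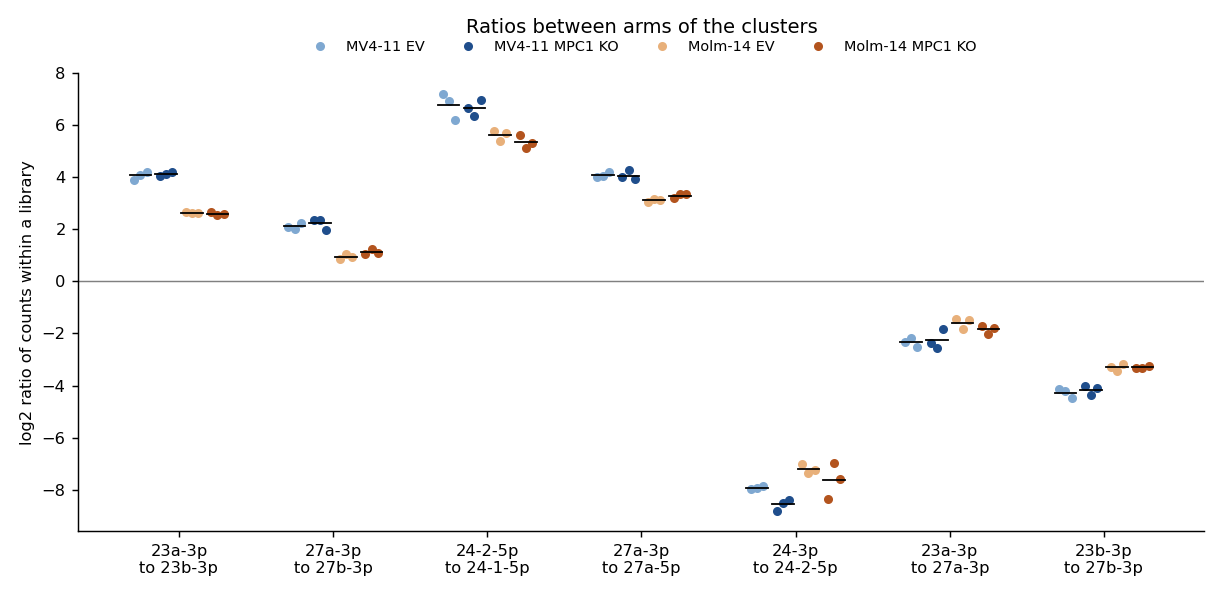
Ratios of counts between arms within each of the 12 libraries, on a log2 scale where 0 is equal counts. Points are libraries, colours are the 4 groups and black lines are group means. The 3 ratios of an a-cluster arm to its b-cluster counterpart, at the left, are above 0 in every library and lower in Molm-14.

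After MPC1 deletion none of the 3 ratios between the clusters passed, averaged over both lines. The log2 ratio of miR-23a-3p to miR-23b-3p differed by 0.0030 between MPC1 KO and EV (exact permutation p = 0.975, adjusted p = 0.975), that of miR-27a-3p to miR-27b-3p by 0.14 (exact permutation p = 0.1, adjusted p = 0.16), and that of miR-24-2-5p to miR-24-1-5p by -0.19 (exact permutation p = 0.33, adjusted p = 0.42). Without the third MV4-11 MPC1 KO library, the miR-27 ratio differed by 0.21 with an unadjusted exact permutation p of 0.02. In Molm-14 the ratio of miR-27a-3p to miR-27b-3p was higher in every MPC1 KO library (2.10 to 2.34) than in every EV library (1.80 to 2.06), while in MV4-11 the genotypes overlapped. The ratio of miR-27a-3p to miR-27a-5p, both of the a-cluster, also separated in Molm-14, at 9.15 to 10.2 in MPC1 KO and 8.21 to 8.99 in EV. How often ratios of other miRNAs separate was not computed, so these have no background beside them. In Molm-14 the summed counts of the 4 arms of the a-cluster alone were also divided by those of the 2 of the b-cluster. The result was 2.74 to 2.94 in MPC1 KO and 2.48 to 2.68 in EV. These sums consist mostly of the same miR-27a-3p and miR-27b-3p counts, so they are no separate sign. The mean ratio of miR-23a-3p to miR-23b-3p there was 6.23 in EV and 6.02 in MPC1 KO. That of miR-24-2-5p to miR-24-1-5p was 49.4 and 41.4. With 3 libraries against 3, no exact p within a line can be below 0.1. Of the 7 ratios, the ratio of miR-24-3p to miR-24-2-5p passed, at -0.55 (exact permutation p = 0.02, adjusted p = 0.035). Its means were 0.00414 ± 0.000147 in MV4-11 EV and 0.00267 ± 0.000388 in MPC1 KO, and 0.00687 ± 0.000841 against 0.00538 ± 0.00239 in Molm-14, where the libraries of the genotypes overlapped. It rests on the 6 to 32 counts of miR-24-3p. Without the first Molm-14 EV library its unadjusted exact permutation p was 0.06, and without the first Molm-14 MPC1 KO library it was 0.055.

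The low count of miR-24-3p stood against its own hairpins. Over the 12 libraries its mean count was 13.1, while miR-24-2-5p, cut from the other side of the chromosome 19 hairpin, had a mean of 3194, or 244 times as many. miR-24-3p is the usual guide arm of this hairpin in other human tissues. Its sequence lies at 2 loci, and how reads that match several loci were counted is not given in the sources used here. Of the 1204 miRNAs, 136 had a name without a match in RefSeq, so their number of loci was not known. Another 38 had a name that RefSeq places at more than 1 locus, and 20 of these had a partner arm with a single locus. The partner arm, the most abundant where there were several, was the higher in 11 of the 20. Among the 13 pairs with both arms tested it was the higher in 7. The matching share for hairpins of miRNAs with 1 locus was not computed, so these counts have no background beside them. miR-181a-5p had a mean count of 2.83 beside 4866 for miR-181a-3p, and miR-16-5p had 110 beside 11240 for miR-16-2-3p. The opposite also occurred, since miR-92a-3p had 23528 beside 2211 for miR-92a-1-5p and miR-128-3p had 13661 beside 327 for miR-128-1-5p. A mean of at least 1000 counts was reached by 13.2% of the 38 and by 11.5% of the 1030 miRNAs with 1 locus. These values were chosen after the count of miR-24-3p was seen, and the part of the number of loci in it was not tested.

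**Figure D5:**
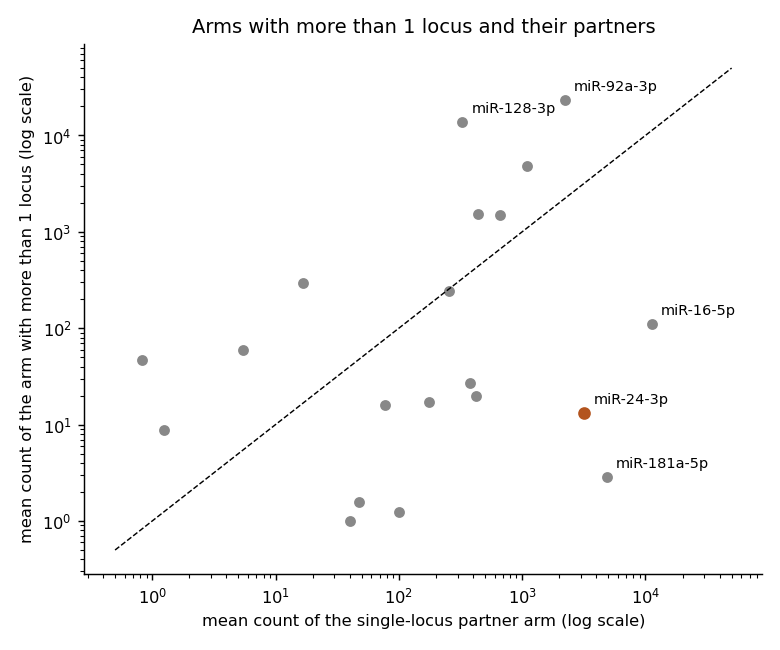
Mean count over the 12 libraries of the 20 arms with more than 1 locus, against the mean count of their partner arm with a single locus, both on log scales. The dashed line marks equal counts and miR-24-3p is coloured. It lies far below the line near miR-16-5p and miR-181a-5p, while miR-92a-3p and miR-128-3p lie above it.

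Among the other arms of these hairpins and their relatives, 6 of 7 were in the table and all 6 were tested. In edgeR 0 of 6 were called after MPC1 deletion in either line, where 3.03% of all miRNAs were called in MV4-11 and 6.83% in Molm-14. In Molm-14 the MPC1 KO libraries of miR-27b-5p, at 49.6, 44.4 and 41.5 CPM, were all below the EV libraries, at 61.1, 51.8 and 52.2 CPM. The log2 difference of -0.28 did not pass (SE 0.14, edgeR adjusted p = 0.26), and 27.2% of all miRNAs tested did not overlap there. miR-23a-5p was 20.2 ± 1.86 CPM in MV4-11 EV and 14.6 ± 1.11 CPM in Molm-14 EV, a log2 difference of -0.46 (edgeR adjusted p = 0.036), and of -0.84 in MPC1 KO (edgeR adjusted p = 0.00030). miR-27b-5p was higher in Molm-14 EV, at 55.0 ± 5.26 against 36.1 ± 1.07 CPM (edgeR adjusted p = 0.00054), and in MPC1 KO its difference of 0.16 did not pass (edgeR adjusted p = 0.32). miR-23b-5p was likewise higher in EV, at 12.7 ± 3.60 against 8.42 ± 2.10 CPM (edgeR adjusted p = 0.027), and not called in MPC1 KO (edgeR adjusted p = 0.86). miR-24-1-5p, miR-23c and miR-3074-3p did not pass between the lines. miR-23c, which shares the miR-23 seed and lies on chromosome X, had 7 to 37 counts, far fewer than miR-23a-3p and miR-23b-3p. miR-3074-5p was not analysed here.

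Other miRNAs known for roles in glutamine metabolism were scarce. miR-122-5p, a liver miRNA, was at 8.02 ± 1.51 CPM in MV4-11 EV and 5.52 ± 0.315 CPM in Molm-14 EV, and its log2 difference after MPC1 deletion was -0.04 in MV4-11 and 0.0011 in Molm-14 (edgeR adjusted p = 0.97 and 1). miR-137 had at most 1 count in a library and miR-203a-3p had 1 to 9, so neither was tested. miR-153-3p was not analysed here.

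Since MYC is known to lower miR-23a and miR-23b, lists of miRNAs it represses or induces were read beside them. Of 12 miRNAs known as MYC-repressed, 11 were tested. After MPC1 deletion 0 were called in MV4-11 (background 3.03%) and 1 in Molm-14 (background 6.83%), where miR-146a-5p, a brake on innate immune signalling, fell from 198 ± 12.4 to 119 ± 7.43 CPM (log2 difference -0.74, edgeR adjusted p = 1.9e-05). Their median log2 change was -0.13 in MV4-11 and 0.072 in Molm-14, beside -0.0035 and -0.013 over all miRNAs tested. Of the 6 guide arms of the MYC-induced miR-17-92 cluster, 0 were called after MPC1 deletion in either line, with medians of -0.24 and 0.13. Between the lines all 6 were higher in Molm-14, in EV (median 0.86) and in MPC1 KO (median 1.26), where 61.9% and 62.4% of the 659 miRNAs were called, 221 higher and 187 lower in EV and 217 higher and 194 lower in MPC1 KO. Of the 11 MYC-repressed miRNAs, 2 were higher and 3 lower in Molm-14 in EV (median 0.20), and 5 were higher and 2 lower in MPC1 KO (median 0.38). MYC itself was not measured.

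The miRNAs with profiles most like those of miR-23a-3p and miR-23b-3p were found by the root mean square difference of log2 CPM, centred on each miRNA's mean over the 12 libraries. For miR-23a-3p they were miR-98-5p (0.134), miR-7976 (0.142), miR-744-5p (0.157), miR-301a-5p (0.167) and miR-374b-3p (0.170), where the median over all other miRNAs tested was 0.615. miR-27a-5p was the nearest member at 0.203, and miR-27b-3p at 0.305 was nearer to miR-23a-3p than its cluster partners miR-27a-3p (0.367) and miR-24-2-5p (0.389). This distance depends on the size of a change and not only its direction. miR-23a-3p and both of these partners were lower in Molm-14, while miR-27b-3p was not called between the lines. For miR-23b-3p the closest were miR-2277-5p (0.0653), miR-25-5p (0.0965), miR-128-1-5p (0.117), miR-548e-3p (0.124) and miR-505-3p (0.144), with a median of 0.606. Its cluster partner miR-27b-3p was at 0.474 and miR-23a-3p at 0.743, above that median. All 12 libraries, of both lines, enter these distances, and no test was made of them.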

How the data were processed

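Small RNA of the MV4-11 and Molm-14 EV and MPC1 KO cells was made into libraries with the NEBNext Multiplex Small RNA Library Prep Set after miRNeasy extraction, per the labels. The authors deposited raw counts, whole numbers of reads per mature miRNA and library, without normalization. The submitters' processing notes name STAR 2.5.2, featureCounts 1.5.1 and GRCh38, with no role given, and the treatment of reads matching several loci is not given in the sources used here. Counts of near-identical arms may therefore be split or lost.

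All 12 libraries entered an edgeR 4.0.16 model in R 4.3.3 (quasi-likelihood, robust, a mean per group), with filterByExpr at a minimum count of 10 and TMM scaling. The Benjamini-Hochberg adjustment ran over 659 miRNAs, with a threshold of 0.05, and intervals are unadjusted 95% intervals of the fit. Ratios within libraries had exact permutation tests, two-sided. Exact binomial intervals cover counting error only. The fit and the permutation test were tested on simulated data. Alternatives were other scalings and filters, DESeq2 1.42.0, limma-voom (limma 3.58.1), a replicate block, other sets of libraries and leaving out each library. 5 ratios between other arms were added after seeing the data. The members and lists were chosen with earlier results of these data known. The miRNAs named are the members, the other arms and relatives of their hairpins, the 5 closest in profile to miR-23a-3p and to miR-23b-3p, listed miRNAs that passed in an MPC1 KO comparison or whose list holds at most 4, and cell type markers. Named outside this rule are miR-16-5p, miR-181a-5p, miR-92a-3p, miR-128-3p and their partner arms. Loci and hosts came from RefSeq and GENCODE v44, both on GRCh38, and the table itself has no coordinates.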

Additional observations from a re-analysis of the deposited data

How the results depend on the processing

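The number of members called stayed within 1.5 times its value in 58 of 58 alternatives that kept all libraries or a whole line, and in 71 of 72 fits that left out 1 library. This tally is a weak check. Between the lines, where 5 of 7 were called, no rise could exceed that limit. After MPC1 deletion, where 0 were called, the number counted as kept only if it stayed 0. Between the lines in EV the number called was 5, with 7 under upper-quartile scaling, 6 at an adjusted p under 0.1 or in the EV libraries alone, and 4 without the third Molm-14 EV library. Of all miRNAs tested, 408 of 659, 443 of 659, 363 of 575 and 376 of 680 were called in these settings, in that order. In Molm-14 after MPC1 deletion the number of members called ranged from 0 to 1 as each library was left out. The 1 was miR-24-2-5p without the second EV library, where 54 of 679 miRNAs were called. Same-numbered libraries had small correlations of their deviations from the group means (-0.127 to 0.116, 1 of 6 over 0.1). No reference was computed for these correlations, so they cannot exclude a pairing. With a replicate block the members called were 0 in both MPC1 KO comparisons and 5 between the lines in EV and in MPC1 KO. Of the 659 miRNAs, 22 and 49 were then called after MPC1 deletion in MV4-11 and Molm-14, and 406 and 409 between the lines in EV and MPC1 KO. Upper-quartile scaling moved the median log2 change of all miRNAs in MV4-11 after MPC1 deletion from -0.0035 to -0.12, and between the lines in EV from 0.060 to -0.12. It turned the split of higher and lower calls from 13 and 7 to 10 and 15 in MV4-11, and from 18 and 27 to 30 and 23 in Molm-14, and total-count scaling gave 20 and 6 in MV4-11.

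Log2 changes near 0 after MPC1 deletion changed sign under some alternatives, and none of these values passed the threshold. In MV4-11 they were miR-27a-3p at -0.0096 and miR-27b-3p at -0.11 with upper-quartile scaling, miR-24-2-5p at 0.052 with total counts, and miR-27b-3p at -0.027 in that line alone. In Molm-14 upper-quartile scaling gave 0.0070 for miR-23a-3p, 0.065 for miR-27a-5p, 0.048 for miR-24-3p, 0.055 for miR-23b-3p and 0.062 for miR-27b-3p. Total counts gave 0.017 for miR-27a-5p, 0.0022 for miR-24-3p, 0.012 for miR-23b-3p and 0.016 for miR-27b-3p. No filter gave 0.0077 for miR-27a-5p, 0.0010 for miR-24-3p, 0.00055 for miR-23b-3p and 0.0063 for miR-27b-3p, and that line alone 0.0015 for miR-27a-5p. Leaving out each library gave, in MV4-11, -0.033 to 0.21 for miR-27a-3p, -0.090 to 0.084 for miR-24-2-5p and -0.062 to 0.090 for miR-27b-3p. In Molm-14 it gave -0.084 to 0.0020 for miR-23a-3p, -0.068 to 0.11 for miR-27a-5p, -0.54 to 0.34 for miR-24-3p, -0.032 to 0.026 for miR-23b-3p and -0.057 to 0.086 for miR-27b-3p, and between the lines in MPC1 KO -0.63 to 0.25 for miR-24-3p. Between the lines in EV, miR-24-3p passed with upper-quartile scaling (-0.91) and with the EV libraries alone (-0.75), and miR-27b-3p with upper-quartile scaling (-0.29).

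For the ratios after MPC1 deletion, miR-23a-3p to miR-23b-3p was -0.0078 by medians and -0.036 to 0.036 as each library was left out, miR-27a-3p to miR-27b-3p was 0.11 to 0.21, and miR-24-3p to miR-24-2-5p was -0.47 by medians (exact permutation p = 0.12, unadjusted) and -0.71 to -0.37. The 7 ratios kept their direction and their side of the threshold between the lines under each alternative. miR-24-3p could not be fitted with a filter of a mean of 100 counts. The causes of these changes were not tested. With 6 to 32 counts a library, the values of miR-24-3p are the least precise of the members.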
